A study of Homo sapiens with 12 samples.

Results

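The comparison described here set the clonal line LmnB1_6 against the clonal line mCherry_4. Its members are the 3 libraries of LmnB1_6 and the 3 of mCherry_4, chosen by the clone named in each sample's title, and they are 6 of the 12 libraries in the series. Both lines were made from hTERT RPE-1, a line of retinal pigment epithelium from human eye that telomerase keeps dividing. LmnB1_6 overexpressed lamin B1 fused to the red fluorescent protein mCherry, and mCherry_4 overexpressed mCherry alone. All cultures, controls included, were kept for 24 hours with 0.05 ug/mL doxycycline, in medium with hygromycin B. The other 6 libraries came from a further control clone, mCherry_3, and a further lamin B1 clone, LmnB1_16. Messenger RNA was sequenced, per the labels' protocols. The sources used here do not name the promoter of the constructs.

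Each line is a single clone, so what differs between LmnB1_6 and mCherry_4 can be due to the construct or to the clones, and these cannot be told apart with this pair alone. The labels call the libraries of a clone biological replicates. The p-values below therefore measure the spread between libraries of a clone, not between independently made lines.

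Lamin B1 is a B-type lamin, an intermediate filament protein that stays attached to the inner nuclear membrane through its farnesyl tail. Together with lamin B2 and the A-type lamins it builds the nuclear lamina, the meshwork that carries the nuclear pores and touches the silent chromatin at the nuclear edge. Retinal pigment epithelium is the pigmented layer that supports the photoreceptors and recycles vitamin A. RPE-1 cells keep few of its specialised functions in culture.

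Estimated counts summed to 23040590, 25291449 and 24306847 in the mCherry_4 libraries and to 23836725, 20598852 and 29477253 in the LmnB1_6 libraries. Mitochondrial transcripts took 2.06% to 2.57% of the counts in these 6 libraries. The first principal component of their log2 CPM held 75.4% of the variance and separated the clones, and the next held 7.03%. Libraries of a clone differed by more than sampling noise, so none was a copy of another. Levels are given as CPM, counts per 1000000 counts after scaling with TMM factors. A level per gene is not scaled by length, so it is compared between clones and not between genes. Where a mean level is given as going from a first to a second value, the first is that of mCherry_4 and the second that of LmnB1_6 (n = 3 each).

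Markers of the labelled tissue were sparse in both clones. Of 12 markers of retinal pigment epithelium, 5 reached 1 CPM in mCherry_4 and 3 in LmnB1_6, and their summed level ran from 69.95 to 80.96 CPM in mCherry_4 and from 11.85 to 12.28 CPM in LmnB1_6. RPE65, the isomerase of the visual cycle, and the pigment enzyme TYR had 0 counts in all 6 libraries. CDH1, the cadherin of most epithelia, also had 0 counts. The simple keratin gene KRT8 went from 400.5 to 324 CPM and KRT18 from 475 to 291 CPM. VIM, the intermediate filament gene of mesenchymal cells, went from 6380.3 to 5699 CPM. The leukocyte gene CD3E and the muscle regulators MYOD1 and MYOG had 0 counts in every library.

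Of 15388 genes tested, 5727 (37.2%) were called at an adjusted p under 0.05, of which 2635 (17.1%) were higher and 3092 (20.1%) lower in LmnB1_6. A difference of at least 2-fold was called for 730 genes higher (4.74%) and 915 lower (5.95%). The median log2 fold change over all tested genes was 0.0021. The shares given beside each gene list below are of its tested members and stand against these 17.1% called higher and 20.1% called lower. The 3 libraries of one clone lay wholly above or below those of the other for 49.0% of the genes. In bulk RNA, fewer cells that express a gene and less RNA per cell cannot be told apart.

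**Figure D1:**
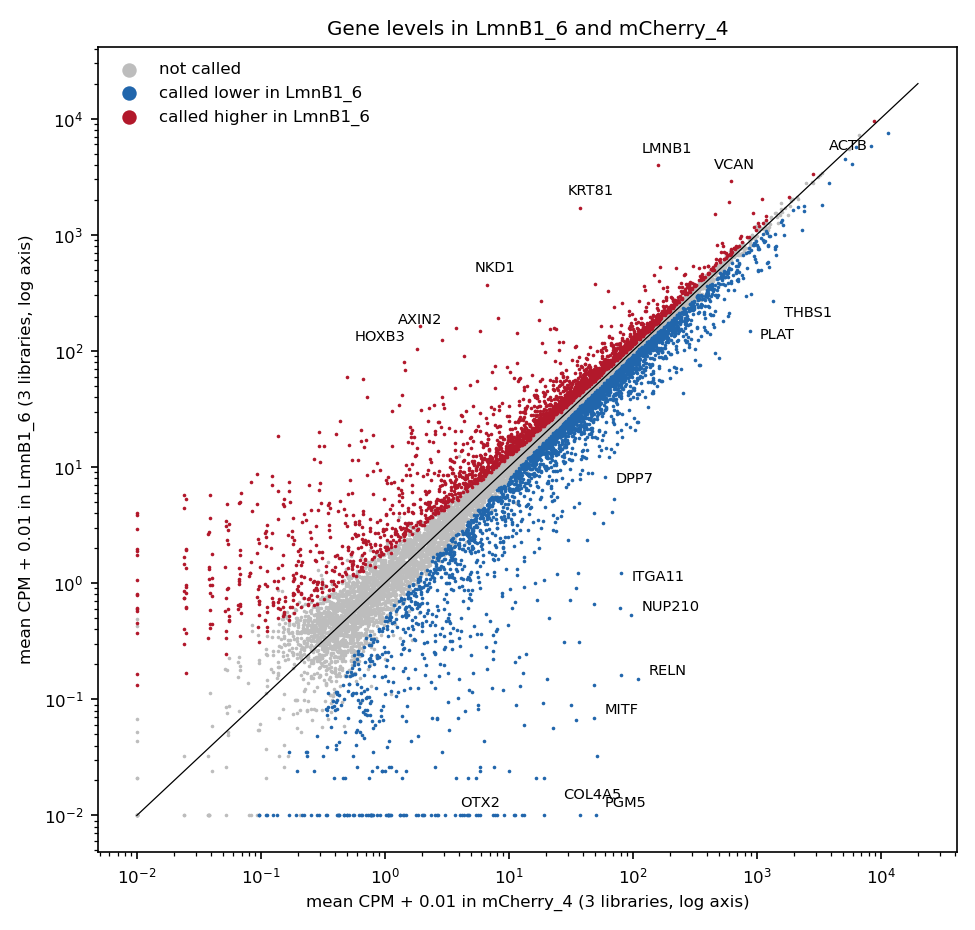
Mean CPM of each tested gene in mCherry_4 (x axis) and LmnB1_6 (y axis), 3 libraries each, on log axes with 0.01 CPM added. Points on the line are equal in both clones, red points were called higher in LmnB1_6 (2635 genes) and blue points lower (3092 genes). LMNB1 lies far above the line, and COL4A5, OTX2 and PGM5 lie on the lower edge because they had 0 counts in LmnB1_6.

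LMNB1, whose product the construct carries, checks the labels (ENSG00000113368.12, chromosome 5, 126776623 to 126837020, plus strand, in build GRCh38). It stood at 160.02, 169 and 155 CPM in mCherry_4 and 3985, 4134 and 3808 CPM in LmnB1_6. All LmnB1_6 libraries were far above all mCherry_4 libraries, and the mean went from 161 ± 7.29 to 3976 ± 164 CPM (SD, n = 3 per clone). The difference (log2 fold change 4.62, SE 0.08, edgeR adjusted p = 3.46e-16) had the third smallest p of all tested genes. Counts do not separate the gene of the cell from the construct. The effective length that the authors' quantification gave LMNB1 was 2459.8 bases in mCherry_4 and 1004 bases in LmnB1_6, and a fit that takes these lengths into account put the log2 fold change at 5.92.

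In the list of lamins and inner nuclear membrane proteins, LMNB1 and SYNE1 were the members called at 2-fold or more, against 10.7% of all tested genes. Of 31 lamins, lamin-processing enzymes and inner nuclear membrane genes listed, 28 passed the filter on low counts, 4 rose (14.3%) and 7 fell (25%), with a median log2 fold change of -0.09. TMPO, which encodes the lamina-associated polypeptide LAP2 that binds B-type lamins and chromatin, stood at 287, 292 and 261 CPM in mCherry_4 and 399, 387 and 338 CPM in LmnB1_6 (log2 fold change 0.42, SE 0.07, edgeR adjusted p = 2.71e-04). SYNE1, which encodes nesprin-1 of the outer nuclear membrane, stood at 122, 124 and 104 CPM in mCherry_4 and 51.6, 50.8 and 56.4 CPM in LmnB1_6 (log2 fold change -1.14, SE 0.12, edgeR adjusted p = 7.64e-07). ICMT, the methyltransferase that finishes the farnesylated end of lamins, went from 247 to 189.8 CPM (log2 fold change -0.38, SE 0.06, edgeR adjusted p = 8.03e-05). Libraries of the clones did not overlap for TMPO, SYNE1 or ICMT. LMNA, the gene of the A-type lamins, went from 1227 to 1101 CPM and was not called. LMNB2, the gene of lamin B2, which like LMNA was chosen after its values were seen, went from 427 to 503 CPM (log2 fold change 0.24, SE 0.06, edgeR adjusted p = 0.00429).

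In the list of nuclear pore proteins, NUP210 was the member called at 2-fold or more. Of 31 members tested, 5 rose and 2 fell (16.1% higher and 6.45% lower, median log2 fold change 0.04). NUP210, an integral membrane protein of the pore that is used in some cell types and absent in others, stood at 100.1, 98.2 and 93.6 CPM in mCherry_4 and 0.171, 0.687 and 0.705 CPM in LmnB1_6 (log2 fold change -7.51, SE 0.21, edgeR adjusted p = 1.21e-12). It averaged 0.273 CPM in mCherry_3 and 0 CPM in LmnB1_16, so that mCherry_4 was the clone apart for this gene. AAAS, a scaffold protein of the pore, rose from 45.1 to 54.5 CPM (log2 fold change 0.27, SE 0.07, edgeR adjusted p = 0.0065). NUP85 of the outer ring rose from 45.8 to 54.9 CPM (log2 fold change 0.26, SE 0.08, edgeR adjusted p = 0.0172). NUP188 of the inner ring rose from 158 to 192 CPM (log2 fold change 0.28, SE 0.06, edgeR adjusted p = 0.00103). The calls of NUP85 and NUP188 were lost in some alternatives, with an edgeR, DESeq2 or limma adjusted p of 0.00422 to 0.0794 for NUP85 and of 1.59e-05 to 0.5 for NUP188 over all alternatives.

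MITF and OTX2, transcription factors of the pigmented eye, were at or near 0 in LmnB1_6. MITF (ENSG00000187098.17, chromosome 3, 69739435 to 69968337, plus strand), the factor that drives pigment cell genes, stood at 48.8, 47.04 and 51.1 CPM in mCherry_4 and 0.0428, 0 and 0.134 CPM in LmnB1_6 (log2 fold change -9.39, SE 0.22, edgeR adjusted p = 1.42e-14). OTX2 (ENSG00000165588.18, chromosome 14, 56799905 to 56810479, minus strand), a homeobox factor of the forebrain and eye, stood at 10.4, 10.1 and 12.8 CPM in mCherry_4 and 0 CPM in every LmnB1_6 library. With 776 counts over the mCherry_4 libraries and 0 over those of LmnB1_6, OTX2 was at least 273-fold lower, taking 3 counts over the LmnB1_6 libraries as the floor. The other clones expressed both genes. MITF averaged 58.6 CPM in mCherry_3 and 31.3 CPM in LmnB1_16, and OTX2 averaged 12.6 CPM in mCherry_3 and 15.5 CPM in LmnB1_16.

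Of 34 genes of the pigment epithelium and the eye field listed, 17 passed the filter, 6 rose and 7 fell (35.3% higher and 41.2% lower, median log2 fold change -0.06). STRA6, the membrane receptor that takes up retinol, stood at 0.587, 0.501 and 0.424 CPM in mCherry_4 and 19.04, 12.2 and 15.3 CPM in LmnB1_6 (log2 fold change 4.94, SE 0.31, edgeR adjusted p = 1.55e-09). RDH10, which oxidises retinol, went from 14.02 to 33.3 CPM (log2 fold change 1.25, SE 0.09, edgeR adjusted p = 5.01e-09). LRAT, which stores retinol as esters, and PAX6, a master factor of eye development, were chosen after their values were seen. LRAT fell from 1.75 to 0.171 CPM (log2 fold change -3.28, SE 0.38, edgeR adjusted p = 3.69e-06). PAX6 rose from 39.1 to 72.4 CPM (log2 fold change 0.89, SE 0.08, edgeR adjusted p = 1.82e-07).

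Type IV collagens form the sheet of basement membranes, and their 6 genes lie in 3 head-to-head pairs that are transcribed away from a shared start region. COL4A5 (ENSG00000188153.14, chromosome X, 108439844 to 108697545, plus strand) had 40.8, 36.5 and 35.3 CPM in mCherry_4 and 0 CPM in every LmnB1_6 library. With 2612 counts in mCherry_4 and 0 in LmnB1_6, it was at least 918-fold lower. COL4A4 (ENSG00000081052.14, chromosome 2, 227002711 to 227164453, minus strand) stood at 8.21, 5.93 and 5.34 CPM in mCherry_4 and 0.257, 0.196 and 0.369 CPM in LmnB1_6 (log2 fold change -4.48, SE 0.27, edgeR adjusted p = 8.98e-10). The partners COL4A3 and COL4A6, named to complete the pairs, were low in mCherry_4 already. COL4A3 stood at 1.76, 1.09 and 1.57 CPM in mCherry_4 and 0.0428, 0 and 0 CPM in LmnB1_6 (102 against 1 counts, a ratio of 108-fold with a 95% counting interval of 18.9 to 4291). COL4A6 stood at 0.948, 1.002 and 0.8897 CPM in mCherry_4 and 0.0428, 0 and 0 CPM in LmnB1_6 (66 against 1 counts, a ratio of 69.6-fold with a 95% counting interval of 12.1 to 2791). Both members of each of these pairs were thus lower in all 3 LmnB1_6 libraries than in any mCherry_4 library.

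The COL4A1 and COL4A2 pair, which supplies the common chains of basement membrane, stayed abundant in every library. COL4A1 stood at 527, 546 and 474 CPM in mCherry_4 and 401, 442 and 483 CPM in LmnB1_6 (log2 fold change -0.22, SE 0.07, edgeR adjusted p = 0.0147). Its libraries overlapped between the clones. COL4A2 stood at 739, 779 and 697 CPM in mCherry_4 and 794, 789 and 879 CPM in LmnB1_6 and was not called (log2 fold change 0.15, SE 0.06, edgeR adjusted p = 0.0603). Their annotated ends overlap, and no source used here gives the strand, so that reads of the overlap cannot be assigned. In the other clones, COL4A5 averaged 68.1 CPM in mCherry_3 and 44.5 CPM in LmnB1_16, and COL4A4 averaged 21.5 CPM in mCherry_3 and 11.2 CPM in LmnB1_16.

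The start regions of the 3 pairs are shown because both members of a pair share the bases between them. All 6 genes matched an entry of the RefSeq promoter table (GRCh38.p14), which gives 250 bases before to 50 after a start. The COL4A1 and COL4A2 starts are 127 bases apart and their windows share 226 bases at chr13:110307108-110307333. The COL4A3 and COL4A4 starts are 419 bases apart and share 82 bases at chr2:227164374-227164455. The COL4A5 start and the nearer of 2 starts listed for COL4A6 are 380 bases apart and share 121 bases at chrX:108439588-108439708. Sequences are written 5′ to 3′ on the strand of each gene, with each CG in capitals. CG reads the same on both strands.
COL4A1: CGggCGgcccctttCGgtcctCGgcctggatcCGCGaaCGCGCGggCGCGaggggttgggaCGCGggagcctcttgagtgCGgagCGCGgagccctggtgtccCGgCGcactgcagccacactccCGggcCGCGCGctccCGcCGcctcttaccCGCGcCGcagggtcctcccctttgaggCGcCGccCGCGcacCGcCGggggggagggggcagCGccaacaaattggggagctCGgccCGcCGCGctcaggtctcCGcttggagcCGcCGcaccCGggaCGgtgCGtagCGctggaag
COL4A2: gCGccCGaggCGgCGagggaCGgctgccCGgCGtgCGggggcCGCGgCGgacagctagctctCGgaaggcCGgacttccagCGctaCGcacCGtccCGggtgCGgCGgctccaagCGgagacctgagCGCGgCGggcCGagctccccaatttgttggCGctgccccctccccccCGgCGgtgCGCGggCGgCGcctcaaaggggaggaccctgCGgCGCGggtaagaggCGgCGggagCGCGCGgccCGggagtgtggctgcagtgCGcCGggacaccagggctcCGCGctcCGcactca
COL4A3: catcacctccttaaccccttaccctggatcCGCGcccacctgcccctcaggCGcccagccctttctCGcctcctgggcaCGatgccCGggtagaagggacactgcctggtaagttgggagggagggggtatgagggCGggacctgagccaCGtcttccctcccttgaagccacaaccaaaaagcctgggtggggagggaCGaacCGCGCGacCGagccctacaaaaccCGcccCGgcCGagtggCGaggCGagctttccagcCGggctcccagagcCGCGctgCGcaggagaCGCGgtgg
COL4A4: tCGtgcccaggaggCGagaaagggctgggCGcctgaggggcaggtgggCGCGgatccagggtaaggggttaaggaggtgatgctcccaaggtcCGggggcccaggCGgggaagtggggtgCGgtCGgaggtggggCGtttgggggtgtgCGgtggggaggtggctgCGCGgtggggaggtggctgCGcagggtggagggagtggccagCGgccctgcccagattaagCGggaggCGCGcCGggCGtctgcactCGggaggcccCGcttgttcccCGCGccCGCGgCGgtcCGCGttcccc
COL4A5: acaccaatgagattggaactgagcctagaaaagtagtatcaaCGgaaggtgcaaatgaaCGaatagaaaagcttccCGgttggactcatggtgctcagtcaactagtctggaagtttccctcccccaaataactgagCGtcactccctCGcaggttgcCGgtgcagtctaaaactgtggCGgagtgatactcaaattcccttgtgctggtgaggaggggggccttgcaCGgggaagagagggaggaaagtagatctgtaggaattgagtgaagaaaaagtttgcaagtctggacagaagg
COL4A6: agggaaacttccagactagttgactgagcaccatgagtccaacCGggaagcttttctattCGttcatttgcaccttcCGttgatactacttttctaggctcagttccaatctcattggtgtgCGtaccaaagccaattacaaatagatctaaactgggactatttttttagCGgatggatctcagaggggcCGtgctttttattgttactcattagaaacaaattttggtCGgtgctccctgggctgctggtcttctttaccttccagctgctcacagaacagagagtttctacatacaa

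The windows held 45 CG for COL4A1 and 45 for COL4A2, 24 for COL4A3 and 29 for COL4A4, and 8 for COL4A5 and 7 for COL4A6. Over the 27305 genes in the table, taking the first entry of each, the median was 14 CG and 95.8% of the windows held at least 1. The pair that stayed abundant had the most CG of the 3, while the pairs lower in LmnB1_6 had more (COL4A3 and COL4A4) or fewer (COL4A5 and COL4A6) than the median. These letters describe the windows only, since no methylation or binding was measured here.

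Collagens as a list were called in both directions. Of 27 listed, 19 passed the filter, 8 rose and 7 fell (42.1% higher and 36.8% lower, median log2 fold change -0.07). COL1A1, the main chain of the collagen of bone and skin, stood at 19.5, 13.9 and 19.1 CPM in mCherry_4 and 172, 160.5 and 224 CPM in LmnB1_6 (log2 fold change 3.41, SE 0.14, edgeR adjusted p = 7.76e-12). COL13A1, a transmembrane collagen, went from 163 to 398 CPM (log2 fold change 1.29, SE 0.06, edgeR adjusted p = 6.25e-11). COL1A1 averaged 15.1 CPM in mCherry_3 and 20.5 CPM in LmnB1_16, far below the LmnB1_6 level.

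Glycoproteins of the matrix fell more often than they rose. Of 41 laminins, fibulins, fibrillins and related genes listed, 28 were tested, 3 rose and 14 fell (10.7% higher and 50% lower, median log2 fold change -0.29, and 0.38 in LmnB1_16 over mCherry_3, which shares no library with this pair). EFEMP1, a fibulin of elastic tissue and of the membrane under the retina, stood at 70.5, 69.2 and 63.8 CPM in mCherry_4 and 3.98, 4.37 and 3.83 CPM in LmnB1_6 (log2 fold change -4.07, SE 0.10, edgeR adjusted p = 1.63e-14). LOX, which crosslinks collagen and elastin, fell from 497 to 86.9 CPM (log2 fold change -2.52, SE 0.10, edgeR adjusted p = 7.46e-12). THBS1, which encodes the adhesive glycoprotein thrombospondin 1, stood at 1447, 1523 and 1112 CPM in mCherry_4 and 274, 288 and 249 CPM in LmnB1_6 (log2 fold change -2.33, SE 0.15, edgeR adjusted p = 3.57e-09), with no overlap between the clones. FBN1, the microfibril protein fibrillin 1, went from 1420 to 672 CPM (log2 fold change -1.08, SE 0.07, edgeR adjusted p = 2.41e-09). TNC, which encodes tenascin C, rose from 123 to 364 CPM (log2 fold change 1.56, SE 0.07, edgeR adjusted p = 4.97e-11).

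Proteoglycans were split, with 7 higher and 10 lower among 20 tested of 30 listed (35% higher and 50% lower, median log2 fold change -0.28). VCAN, the large hyaluronan-binding proteoglycan versican, stood at 671, 641 and 546 CPM in mCherry_4 and 3098, 2660.3 and 2866 CPM in LmnB1_6 (log2 fold change 2.21, SE 0.12, edgeR adjusted p = 2.28e-10). BGN, the small proteoglycan biglycan, went from 4.84 to 50.4 CPM (log2 fold change 3.38, SE 0.10, edgeR adjusted p = 2.33e-13). SRGN, which encodes serglycin of secretory granules, fell from 328 to 161 CPM (log2 fold change -1.03, SE 0.07, edgeR adjusted p = 6.25e-09). CSPG4, which encodes the NG2 proteoglycan, fell from 341 to 216 CPM (log2 fold change -0.66, SE 0.05, edgeR adjusted p = 1.84e-08). VCAN and BGN were also high in the other lamin B1 clone: VCAN averaged 191 CPM in mCherry_3 and 1143 CPM in LmnB1_16, and BGN averaged 1.07 CPM in mCherry_3 and 63.03 CPM in LmnB1_16. XYLT1, which adds the first sugar of the chains that proteoglycans carry, stood at 35.7, 38.3 and 30.04 CPM in mCherry_4 and 0, 0 and 0.168 CPM in LmnB1_6 (log2 fold change -8.89, SE 0.26, edgeR adjusted p = 1.11e-13, and -8.26 with effective lengths in the fit).

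Proteases of the matrix and the plasmin system and their inhibitors were called in both directions. Of 36 proteases and inhibitors listed, 29 were tested, 7 rose and 17 fell (24.1% higher and 58.6% lower, median log2 fold change -0.65, and 0.44 in LmnB1_16 over mCherry_3). PLAT, the tissue plasminogen activator, stood at 936, 879.6 and 813 CPM in mCherry_4 and 143, 149 and 155 CPM in LmnB1_6 (log2 fold change -2.56, SE 0.07, edgeR adjusted p = 2.44e-14). SERPINB2, an inhibitor of plasminogen activators, fell from 46.7 to 8.81 CPM (log2 fold change -2.41, SE 0.09, edgeR adjusted p = 3.78e-12). MMP2, the gelatinase of mesenchymal cells, went from 1093 to 497 CPM (log2 fold change -1.14, SE 0.06, edgeR adjusted p = 1.25e-10). ADAMTS14, a procollagen protease, rose in contrast, with 5.96, 5.84 and 5.72 CPM in mCherry_4 and 149, 139 and 154 CPM in LmnB1_6 (log2 fold change 4.66, SE 0.11, edgeR adjusted p = 1.63e-14). For PLAT the clones did not overlap, and it averaged 873 CPM in mCherry_3 and 1944 CPM in LmnB1_16.

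Integrins, the receptors that hold cells to the matrix, were lower for 11 of 18 members tested and higher for 4 (of 22 listed, 22.2% higher and 61.1% lower, median log2 fold change -0.49). ITGA11, a collagen receptor subunit, stood at 89.4, 80.8 and 71.1 CPM in mCherry_4 and 1.198, 0.834 and 1.61 CPM in LmnB1_6 (log2 fold change -5.99, SE 0.16, edgeR adjusted p = 4.92e-14). The abundant subunits also fell. ITGA3, a laminin receptor subunit, went from 2329.7 to 1102 CPM (log2 fold change -1.08, SE 0.05, edgeR adjusted p = 1.91e-11). ITGA5, of the fibronectin receptor, went from 1269 to 522 CPM (log2 fold change -1.28, SE 0.06, edgeR adjusted p = 3.34e-11). ITGB1, the beta subunit of both, went from 2416 to 1596 CPM (log2 fold change -0.60, SE 0.05, edgeR adjusted p = 1.41e-07). ITGA4, which pairs with ITGB1 to bind fibronectin and VCAM1, rose from 26.97 to 63.9 CPM (log2 fold change 1.24, SE 0.07, edgeR adjusted p = 4.20e-10). ITGA11 averaged 96.7 CPM in mCherry_3 and 97.5 CPM in LmnB1_16, close to its level in mCherry_4.

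Genes of the HOXB cluster were higher in LmnB1_6 than in mCherry_4. HOX genes are homeobox factors that give position along the body axis and lie in clusters in the order of that axis. Of 35 HOX genes listed, the 8 that passed the filter, HOXB2 to HOXB9, rose, with a median log2 fold change of 5.67. Their median was -2.95 in LmnB1_16 over mCherry_3, -2.44 in mCherry_4 over mCherry_3 and 5.12 in LmnB1_6 over LmnB1_16. HOXB3 stood at 1.62, 1.63 and 2.16 CPM in mCherry_4 and 107, 102 and 99.9 CPM in LmnB1_6 (log2 fold change 5.83, SE 0.11, edgeR adjusted p = 1.16e-15). HOXB9 stood at 1.17, 1.29 and 1.91 CPM in mCherry_4 and 67.8, 65.9 and 73.0 CPM in LmnB1_6 (log2 fold change 5.55, SE 0.15, edgeR adjusted p = 6.30e-14). HOXB6 stood at 0.542, 0.751 and 0.847 CPM in mCherry_4 and 42.1, 35.3 and 42.5 CPM in LmnB1_6 (log2 fold change 5.79, SE 0.16, edgeR adjusted p = 5.61e-14). Each LmnB1_6 library was far above each mCherry_4 library for these 3 genes. HOXB4 went from 0.113 to 6.99 CPM (log2 fold change 5.87, SE 0.38, edgeR adjusted p = 2.50e-09). HOXB8 went from 0.0839 to 8.62 CPM (log2 fold change 6.57, SE 0.45, edgeR adjusted p = 2.60e-08). The rest of the cluster was named to complete it. HOXB5 went from 0.288 to 7.31 CPM (log2 fold change 4.65, SE 0.32, edgeR adjusted p = 6.52e-09). HOXB7 and HOXB2 were the lowest of the 8 in LmnB1_6. HOXB7 went from 0.402 to 1.74 CPM (log2 fold change 2.10, SE 0.32, edgeR adjusted p = 7.11e-05). HOXB2 went from 0.05699 to 1.03 CPM (log2 fold change 4.05, SE 0.73, edgeR adjusted p = 3.16e-04).

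The cluster was a run of 11 neighbouring tested genes called higher, from HOXB2 to LINC03057 (chromosome 17, 48540894 to 48647023, GRCh38). This run was chosen after the values were seen. Besides the coding genes it held HOXB-AS2 and HOXB-AS3, antisense transcripts that overlap the cluster, whose reads cannot be told apart from those of the coding strand without strand information. The clones outside this comparison differed in HOXB levels too. HOXB9 averaged 7.72 CPM in mCherry_3 and 0.196 CPM in LmnB1_16, and HOXB3 averaged 5.83 CPM in mCherry_3 and 2.78 CPM in LmnB1_16. HOXB4 averaged 5.58 CPM in mCherry_3 and 5.28 CPM in LmnB1_16, so mCherry_4 was the clone apart for it. The LmnB1_6 libraries lay outside the range of the other 9 for 6 of the 8 genes, all but HOXB4 and HOXB7.

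Several target and feedback genes of the Wnt pathway rose. Wnt ligands bind frizzled receptors, which lets beta-catenin act with TCF and LEF factors on target genes, several of which damp the signal. Of 24 listed, 17 were tested, 10 rose and 4 fell (58.8% higher and 23.5% lower, median log2 fold change 0.88, and 0.30 in LmnB1_16 over mCherry_3). AXIN2, a scaffold of the complex that degrades beta-catenin and a common readout of the pathway, stood at 2.798, 3.46 and 5.04 CPM in mCherry_4 and 166, 154 and 148 CPM in LmnB1_6 (log2 fold change 5.37, SE 0.15, edgeR adjusted p = 7.10e-14). NKD1, which binds dishevelled, stood at 7.49, 6.39 and 6.31 CPM in mCherry_4 and 402, 329 and 385 CPM in LmnB1_6 (log2 fold change 5.79, SE 0.11, edgeR adjusted p = 1.63e-14, and 6.80 with effective lengths in the fit). Every LmnB1_6 library was far above every mCherry_4 library for both genes.

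The factor TCF7 rose from 27.1 to 119.9 CPM (log2 fold change 2.14, SE 0.06, edgeR adjusted p = 1.49e-13). Among the ligands, WNT5A and its relative WNT5B went opposite ways. WNT5A, chosen after its values were seen, stood at 48.96, 53.4 and 45.6 CPM in mCherry_4 and 404, 376 and 346 CPM in LmnB1_6 (log2 fold change 2.93, SE 0.09, edgeR adjusted p = 3.34e-13). WNT5B stood at 353, 356 and 328 CPM in mCherry_4 and 78.3, 77.5 and 71.7 CPM in LmnB1_6 (log2 fold change -2.19, SE 0.06, edgeR adjusted p = 4.02e-14). SFRP1, a secreted frizzled-related inhibitor, went from 1113 to 2042 CPM (log2 fold change 0.88, SE 0.08, edgeR adjusted p = 1.33e-07). LEF1, NOTUM and LGR4 were chosen after their values were seen. LEF1, the partner factor of beta-catenin, rose from 15.4 to 62.2 CPM (log2 fold change 2.01, SE 0.09, edgeR adjusted p = 2.35e-11). NOTUM, a secreted enzyme that inactivates Wnt ligands, rose from 0.0839 to 4.83 CPM (log2 fold change 5.73, SE 0.56, edgeR adjusted p = 4.11e-07). LGR4, an R-spondin receptor, fell from 145 to 57.9 CPM (log2 fold change -1.33, SE 0.06, edgeR adjusted p = 6.29e-11). AXIN2 averaged 2.61 CPM in mCherry_3 and 3.07 CPM in LmnB1_16, and NKD1 averaged 0 CPM in mCherry_3 and 0.0162 CPM in LmnB1_16.

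**Figure D2:**
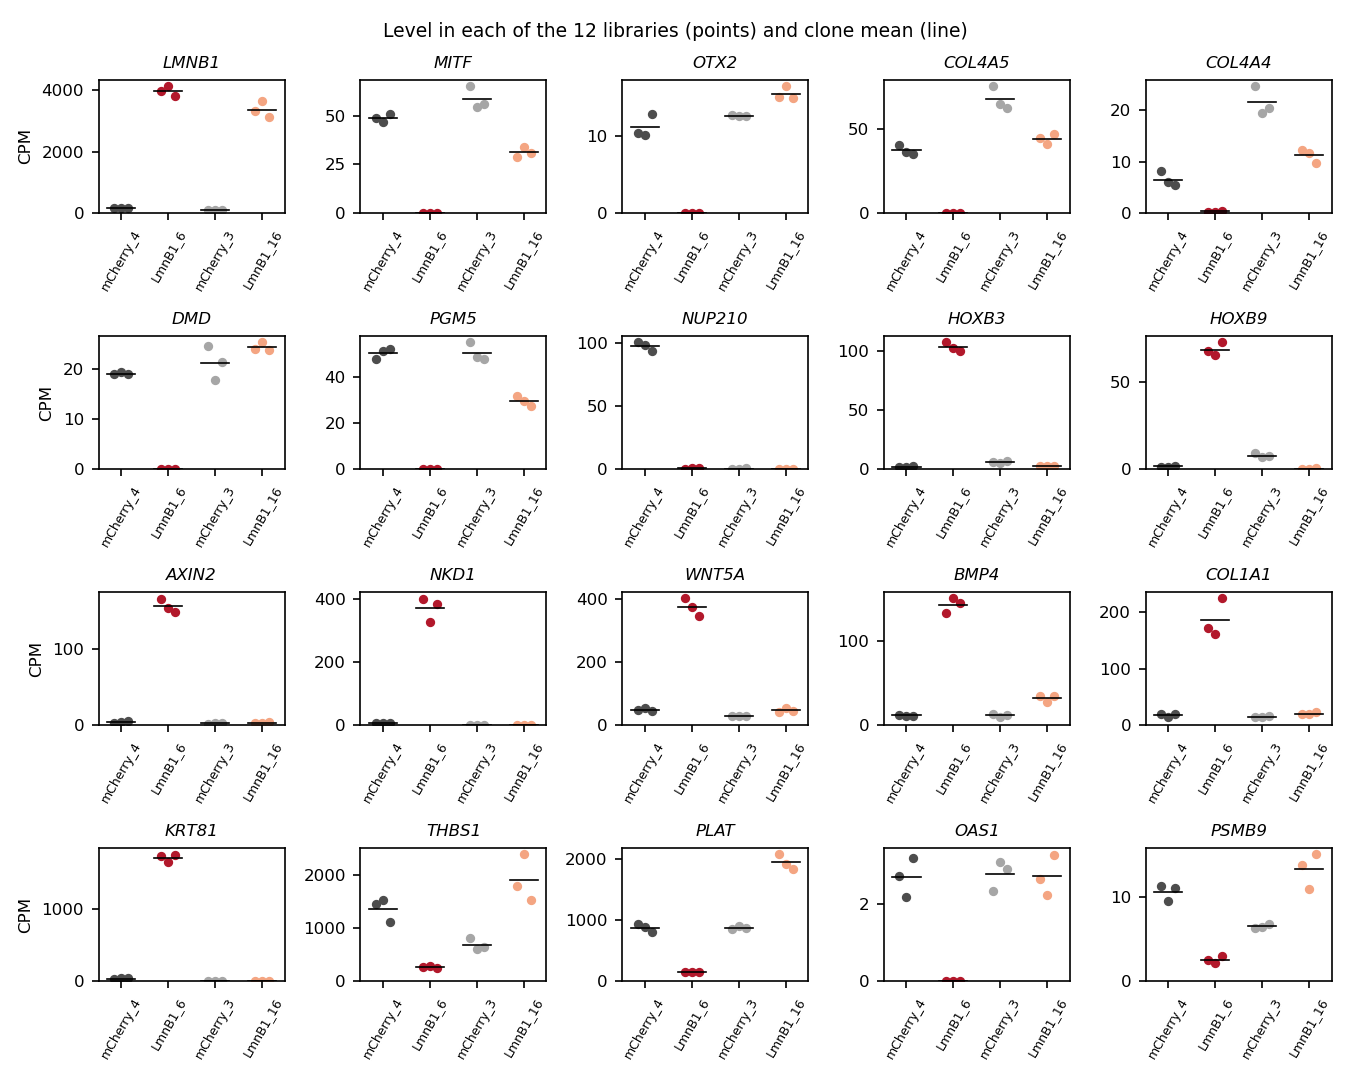
CPM of 20 genes in each of the 12 libraries (y axis, linear from 0), one panel per gene, with a point per library and a line at the mean of each clone (n = 3). MITF, OTX2, COL4A5, DMD, PGM5 and OAS1 sit at or near 0 in the LmnB1_6 libraries and above 0 in the other 9. AXIN2, NKD1, WNT5A, HOXB3 and KRT81 are highest in LmnB1_6, and NUP210 is highest in mCherry_4.

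Ligands and targets of the TGF-beta and BMP pathways moved both ways. Of 31 listed, 30 were tested, 13 rose and 7 fell (43.3% higher and 23.3% lower, median log2 fold change 0.24). The ligand BMP4 stood at 12.5, 10.9 and 11.4 CPM in mCherry_4 and 133, 151 and 145 CPM in LmnB1_6 (log2 fold change 3.62, SE 0.12, edgeR adjusted p = 8.25e-13). The related ligand BMP2 stood at 4.603, 4.55 and 3.77 CPM in mCherry_4 and 91.03, 91.6 and 88.9 CPM in LmnB1_6 (log2 fold change 4.39, SE 0.13, edgeR adjusted p = 1.49e-13). PMEPA1, a TGF-beta target that restrains SMAD signalling, stood at 21.5, 15.7 and 17.4 CPM in mCherry_4 and 285, 248 and 266 CPM in LmnB1_6 (log2 fold change 3.87, SE 0.10, edgeR adjusted p = 2.44e-14). All 3 were higher in every LmnB1_6 library. LTBP2, a relative of the latent TGF-beta binding proteins, rose from 21.7 to 153 CPM (log2 fold change 2.82, SE 0.07, edgeR adjusted p = 3.67e-14). TGFBI, a secreted matrix protein induced by TGF-beta, rose from 595 to 1923 CPM (log2 fold change 1.69, SE 0.06, edgeR adjusted p = 2.03e-12).

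Outputs of the ERK kinase cascade were as often higher (10) as lower (9) among 28 tested (35.7% higher and 32.1% lower, median log2 fold change -0.03). IL17RD, a membrane inhibitor of FGF signalling, stood at 8.94, 7.64 and 7.795 CPM in mCherry_4 and 207, 180.01 and 193 CPM in LmnB1_6 (log2 fold change 4.57, SE 0.09, edgeR adjusted p = 1.16e-15). TGFA, a ligand of the EGF receptor, stood at 22.2, 18.5 and 20.2 CPM in mCherry_4 and 0.171, 0.147 and 0.101 CPM in LmnB1_6 (log2 fold change -7.17, SE 0.21, edgeR adjusted p = 1.49e-13). No library of the clones overlapped for either. FOSL1, an AP-1 factor, fell from 458 to 219.6 CPM (log2 fold change -1.06, SE 0.07, edgeR adjusted p = 6.08e-09). ETV4, an ETS factor, rose from 19.8 to 42.2 CPM (log2 fold change 1.10, SE 0.08, edgeR adjusted p = 2.02e-08).

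In the Notch pathway, a contact signal between neighbouring cells, 5 of 15 genes tested rose and 4 fell (of 20 listed, 33.3% higher and 26.7% lower, median log2 fold change 0.26). POGLUT3, an enzyme that puts glucose on EGF repeats, stood at 2.08, 2.796 and 2.58 CPM in mCherry_4 and 38.0, 34.05 and 31.3 CPM in LmnB1_6 (log2 fold change 3.78, SE 0.17, edgeR adjusted p = 3.27e-11), and it averaged 0.759 CPM in mCherry_3 and 61.6 CPM in LmnB1_16. LFNG, which modifies Notch receptors with sugar, rose from 3.25 to 8.45 CPM (log2 fold change 1.38, SE 0.18, edgeR adjusted p = 1.35e-05). The ligand JAG1 fell from 38.6 to 13.8 CPM (log2 fold change -1.48, SE 0.13, edgeR adjusted p = 9.14e-08). The receptor NOTCH2 fell from 646 to 449 CPM (log2 fold change -0.52, SE 0.08, edgeR adjusted p = 8.26e-05).

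Among growth factor and hormone receptors, 7 rose and 10 fell of 25 tested and 35 listed (28% higher and 40% lower, median log2 fold change -0.18). DDR2, a collagen receptor kinase, fell from 255 to 149 CPM (log2 fold change -0.78, SE 0.08, edgeR adjusted p = 1.16e-06). IL6ST, the shared signalling chain of the IL-6 family, fell from 374 to 218 CPM (log2 fold change -0.78, SE 0.08, edgeR adjusted p = 5.47e-07). The ephrin receptors went both ways. EPHA5 fell from 27.9 to 10.9 CPM (log2 fold change -1.35, SE 0.11, edgeR adjusted p = 4.43e-08). EPHB2 rose from 99.5 to 209 CPM (log2 fold change 1.07, SE 0.07, edgeR adjusted p = 2.50e-09).

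Guidance genes were even, with 9 higher and 9 lower of 27 semaphorins, plexins, netrins and slits tested (33.3% higher and 33.3% lower, median log2 fold change -0.10). NTN4, a netrin of basement membranes, stood at 249.8, 263 and 253 CPM in mCherry_4 and 41.0, 46.5 and 42.1 CPM in LmnB1_6 (log2 fold change -2.56, SE 0.06, edgeR adjusted p = 1.63e-14). ROBO1, the slit receptor, fell from 94.2 to 30.9 CPM (log2 fold change -1.61, SE 0.09, edgeR adjusted p = 4.77e-10). SEMA3F, a secreted semaphorin, fell from 157 to 49.4 CPM (log2 fold change -1.67, SE 0.10, edgeR adjusted p = 6.00e-10). SEMA7A, a membrane-anchored semaphorin, fell from 651 to 335 CPM (log2 fold change -0.96, SE 0.05, edgeR adjusted p = 5.59e-10).

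The LIM-domain and contractile genes of the actin cytoskeleton were called in both directions. Of 39 LIM-domain and contractile genes listed, 37 were tested, 9 rose and 21 fell (24.3% higher and 56.8% lower, median log2 fold change -0.37). PGM5 (ENSG00000154330.13, chromosome 9, 68328308 to 68531061, plus strand), an enzyme-like protein of adhesion sites that binds dystrophin, had 47.8, 51.5 and 52.5 CPM in mCherry_4 and 0 CPM in every LmnB1_6 library, and was at least 1242-fold lower. DMD (ENSG00000198947.18, chromosome X, 31097677 to 33339441, minus strand), which encodes dystrophin, the link between actin and the matrix, had 18.998, 19.4 and 18.98 CPM in mCherry_4 and 0 CPM in every LmnB1_6 library, and was at least 469-fold lower. Both were present in the other clones. PGM5 averaged 50.6 CPM in mCherry_3 and 29.7 CPM in LmnB1_16, and DMD averaged 21.3 CPM in mCherry_3 and 24.5 CPM in LmnB1_16. PGM5 has near-identical copies in the genome, and no source used here says how counting splits reads among them.

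LIMCH1, an activator of non-muscle myosin, fell from 111 to 24.3 CPM (log2 fold change -2.19, SE 0.08, edgeR adjusted p = 3.28e-12). ZNF185, a LIM protein that binds actin, stood at 2.17, 3.71 and 2.75 CPM in mCherry_4 and 127, 125 and 121 CPM in LmnB1_6 (log2 fold change 5.43, SE 0.13, edgeR adjusted p = 1.63e-14). It averaged 1.89 CPM in mCherry_3 and 87.3 CPM in LmnB1_16, so both lamin B1 clones were high. ACTB, beta-actin, stood at 10978, 11688 and 11421 CPM in mCherry_4 and 7615, 7537 and 7291 CPM in LmnB1_6 (log2 fold change -0.60, SE 0.04, edgeR adjusted p = 1.48e-08). ACTG1, gamma-actin, fell from 8401 to 5752 CPM (log2 fold change -0.55, SE 0.06, edgeR adjusted p = 2.71e-06). ACTB and ACTG1 share sequence with each other and with pseudogenes, so the split between them is uncertain. Both genes were highest in mCherry_4 of the 4 clones. ACTB averaged 6354 CPM in mCherry_3 and 6631 CPM in LmnB1_16, and ACTG1 averaged 3799 CPM in mCherry_3 and 4727 CPM in LmnB1_16. FLNA, which encodes the actin crosslinker filamin A, fell from 5832 to 4031 CPM (log2 fold change -0.53, SE 0.06, edgeR adjusted p = 1.64e-06). MYH9, non-muscle myosin IIA, fell from 3828 to 2763 CPM (log2 fold change -0.47, SE 0.09, edgeR adjusted p = 6.18e-04). TUBB, beta-tubulin, rose from 2866 to 3306 CPM (log2 fold change 0.21, SE 0.05, edgeR adjusted p = 0.00441).

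Targets of YAP and TEAD, the co-activator and DNA-binding factors that respond to stretch and adhesion, fell for 13 of 27 members tested and rose for 5 (18.5% higher and 48.1% lower, median log2 fold change -0.19, and -0.11 in LmnB1_16 over mCherry_3). The median was 0.25 in mCherry_4 over mCherry_3 and 0.09 in LmnB1_6 over LmnB1_16. The difference between the pairs of clones that share no library was called for 17 of the 27 genes. F3, tissue factor, stood at 497, 519 and 380.2 CPM in mCherry_4 and 84.8, 99.5 and 100.5 CPM in LmnB1_6 (log2 fold change -2.29, SE 0.14, edgeR adjusted p = 1.94e-09). CCN1, a secreted matricellular protein and a standard readout of YAP, went from 1216 to 574 CPM (log2 fold change -1.08, SE 0.08, edgeR adjusted p = 1.06e-08). For F3 and CCN1 the LmnB1_6 libraries lay below every mCherry_4 library. CRIM1, a membrane protein that binds BMPs, fell from 1439.8 to 799.9 CPM (log2 fold change -0.85, SE 0.06, edgeR adjusted p = 3.47e-09). MYOF, the membrane repair protein myoferlin, fell from 1414 to 758 CPM (log2 fold change -0.90, SE 0.06, edgeR adjusted p = 6.10e-09). In LmnB1_16 over mCherry_3 the log2 fold change was -0.45 for F3 and -0.55 for CCN1, but 0.08 for CRIM1 and 0.35 for MYOF.

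Epithelial and mesenchymal genes were called in both directions. Of 33 epithelial cadherin, keratin and junction genes listed, 20 were tested, 7 rose and 11 fell (35% higher and 55% lower, median log2 fold change -0.34). CLDN1, a tight junction protein, fell from 7.52 to 0.348 CPM (log2 fold change -4.39, SE 0.25, edgeR adjusted p = 4.69e-10). DSP, the desmosome plaque protein desmoplakin, fell from 216 to 73.01 CPM (log2 fold change -1.56, SE 0.09, edgeR adjusted p = 7.55e-10). CXADR, a junction receptor, fell from 12.5 to 2.26 CPM (log2 fold change -2.45, SE 0.16, edgeR adjusted p = 3.77e-09). KRT81, a hair keratin, stood at 35.2, 40.2 and 38.4 CPM in mCherry_4 and 1732, 1652 and 1754 CPM in LmnB1_6 (log2 fold change 5.50, SE 0.16, edgeR adjusted p = 1.11e-13). In the other clones it averaged 5.83 CPM in mCherry_3 and 4.73 CPM in LmnB1_16. KRT81 shares most of its sequence with KRT83 and KRT86, so its count is uncertain where reads could fit several of them.

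Of 21 mesenchymal factors and cadherins tested, 7 rose and 10 fell (33.3% higher and 47.6% lower, median log2 fold change -0.16). SNAI2, a zinc finger repressor of epithelial genes, stood at 2.39, 3.09 and 3.14 CPM in mCherry_4 and 43.9, 39.2 and 37.7 CPM in LmnB1_6 (log2 fold change 3.80, SE 0.16, edgeR adjusted p = 1.34e-11). CDH10, a type II cadherin, had 8.98, 10.02 and 8.43 CPM in mCherry_4 and 0 CPM in every LmnB1_6 library and was at least 224-fold lower. CDH6, another cadherin, fell from 39.1 to 12.4 CPM (log2 fold change -1.65, SE 0.12, edgeR adjusted p = 1.48e-08). THY1, a surface marker of fibroblasts, fell from 268 to 118 CPM (log2 fold change -1.18, SE 0.06, edgeR adjusted p = 2.16e-10).

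Among 30 neuronal and glial markers listed, 13 were tested, 4 rose and 5 fell (30.8% higher and 38.5% lower, median log2 fold change 0.20). SNAP25, a SNARE protein of vesicle release, stood at 0.857, 0.334 and 0.7202 CPM in mCherry_4 and 15.5, 16.8 and 17.9 CPM in LmnB1_6 (log2 fold change 4.71, SE 0.26, edgeR adjusted p = 4.46e-10). SYT1, the calcium sensor of synaptic vesicles, rose from 28.9 to 68.9 CPM (log2 fold change 1.25, SE 0.07, edgeR adjusted p = 2.87e-10). TUBB3, neuronal tubulin, rose from 265 to 459 CPM (log2 fold change 0.79, SE 0.06, edgeR adjusted p = 3.03e-08). NRXN3, the synaptic adhesion protein neurexin 3, fell from 8.97 to 0.111 CPM (log2 fold change -6.30, SE 0.32, edgeR adjusted p = 1.28e-10). The 6 defining markers of neurons and glia summed to 28.1 to 31.2 CPM in mCherry_4 and 84.6 to 88.4 CPM in LmnB1_6, nearly all of it from SNAP25 and SYT1. RBFOX3 and STMN2, which mark mature and growing neurons, had 0 counts in all 6 libraries.

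MHC class I and antigen processing genes fell together. These genes cut proteins into peptides, load them and show them to T cells. Of 18 listed and tested, 17 fell and 0 rose (0% higher and 94.4% lower, median log2 fold change -0.41, and 0.09 in LmnB1_16 over mCherry_3). PSMB9, a subunit of the immunoproteasome, stood at 11.4, 9.60 and 11.1 CPM in mCherry_4 and 2.48, 2.16 and 3.02 CPM in LmnB1_6 (log2 fold change -2.05, SE 0.16, edgeR adjusted p = 2.18e-08). PSMB8, another subunit, stood at 53.7, 50.6 and 55.2 CPM in mCherry_4 and 33.6, 37.8 and 37.2 CPM in LmnB1_6 (log2 fold change -0.56, SE 0.07, edgeR adjusted p = 1.74e-05). Each was lower in all 3 LmnB1_6 libraries. TAP1, the peptide transporter, fell from 38.4 to 20.02 CPM (log2 fold change -0.93, SE 0.11, edgeR adjusted p = 3.07e-06). ERAP1, the trimming peptidase, fell from 84.1 to 54.3 CPM (log2 fold change -0.63, SE 0.07, edgeR adjusted p = 1.81e-06). B2M, the common light chain, which was chosen after its values were seen, fell from 578 to 475 CPM (log2 fold change -0.28, SE 0.08, edgeR adjusted p = 0.0128).

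Interferon-stimulated genes were lower for 15 and higher for 6 of 35 tested and 40 listed (17.1% higher and 42.9% lower, median log2 fold change -0.19, and -0.19 in LmnB1_16 over mCherry_3). Despite these equal medians, the difference between the pairs of clones was called for 25 of the 35 genes. OAS1, an enzyme that senses double-stranded RNA, had 2.71, 2.17 and 3.18 CPM in mCherry_4 and 0 CPM in every LmnB1_6 library and was at least 65.8-fold lower. OAS1 averaged 2.76 CPM in mCherry_3 and 2.70 CPM in LmnB1_16, close to its level in mCherry_4. SAMD9L, an antiviral gene, fell from 17.2 to 2.38 CPM (log2 fold change -2.83, SE 0.14, edgeR adjusted p = 1.13e-10). Its neighbour SAMD9 fell from 47.2 to 21.6 CPM (log2 fold change -1.13, SE 0.11, edgeR adjusted p = 3.87e-07). GBP2, an interferon-induced GTPase, rose from 3.34 to 11.8 CPM (log2 fold change 1.82, SE 0.21, edgeR adjusted p = 3.57e-06).

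Among 8 genes of cytosolic DNA sensing tested, 3 fell (37.5%) and 0 rose, a share called that is near the 37.2% of all tested genes. STING1, the adaptor, fell from 80.0 to 51.98 CPM (log2 fold change -0.62, SE 0.07, edgeR adjusted p = 9.67e-07). ENPP1, which breaks down the ligand of STING1, fell from 39.7 to 25.3 CPM (log2 fold change -0.65, SE 0.08, edgeR adjusted p = 4.61e-06). SAMHD1, a nucleotide hydrolase, fell from 58.2 to 39.4 CPM (log2 fold change -0.56, SE 0.09, edgeR adjusted p = 9.38e-05). The 4 leukocyte markers summed to 66.3 to 77.4 CPM in mCherry_4 and 42.9 to 46.1 CPM in LmnB1_6. Nearly all of it came from CD68, a lysosomal protein that other cells also make, which fell from 64.5 to 42.3 CPM (log2 fold change -0.61, SE 0.07, edgeR adjusted p = 3.75e-06). PTPRC, the pan-leukocyte marker, was at 0.23 CPM in mCherry_4 and 0.24 CPM in LmnB1_6. CSF1R, the macrophage growth factor receptor, fell from 5.54 to 1.58 CPM (log2 fold change -1.81, SE 0.23, edgeR adjusted p = 9.44e-06, and a log2 fold change of -0.81 with effective lengths in the fit). It averaged 1.37 CPM in mCherry_3 and 4.12 CPM in LmnB1_16. The CSF1R call was lost in some alternatives, with an adjusted p of 3.00e-12 to 0.0641 over all of them (edgeR, DESeq2 or limma). The part of such cells in the results for immune genes was not tested.

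Secreted cytokines, growth factors and adhesion molecules of the senescence secretome had the lowest median log2 fold change of any list with at least 10 members tested, -1.29, against 0.82 in LmnB1_16 over mCherry_3. Of 32 listed, 22 were tested, 5 rose (22.7%) and 12 fell (54.5%). VEGFA, a growth factor of blood vessels, stood at 121, 91.2 and 113 CPM in mCherry_4 and 22.9, 21.98 and 27.6 CPM in LmnB1_6 (log2 fold change -2.15, SE 0.12, edgeR adjusted p = 6.14e-10). VEGFC, a growth factor of lymph vessels, stood at 56.2, 55.3 and 60.7 CPM in mCherry_4 and 18.9, 18.7 and 19.5 CPM in LmnB1_6 (log2 fold change -1.59, SE 0.08, edgeR adjusted p = 2.19e-10). CSF1, the growth factor of macrophages, stood at 54.3, 52.9 and 62.2 CPM in mCherry_4 and 16.6, 15.9 and 19.1 CPM in LmnB1_6 (log2 fold change -1.71, SE 0.09, edgeR adjusted p = 1.13e-10). No LmnB1_6 library reached the lowest mCherry_4 library for any of the 3. The cytokine IL1B, chosen after its values were seen, fell from 5.51 to 0.352 CPM (log2 fold change -3.99, SE 0.42, edgeR adjusted p = 9.53e-07). TNFSF12, a ligand of the TNF family, rose from 0.129 to 3.57 CPM (log2 fold change 4.74, SE 0.42, edgeR adjusted p = 4.60e-07, and 3.95 with effective lengths in the fit). TNFSF12 was also higher in LmnB1_16 over mCherry_3, with a log2 fold change of 8.48. The values there were 1.57 for VEGFA, 1.59 for VEGFC, 1.16 for CSF1 and 0.68 for IL1B, opposite in sign to those here.

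**Figure D3:**
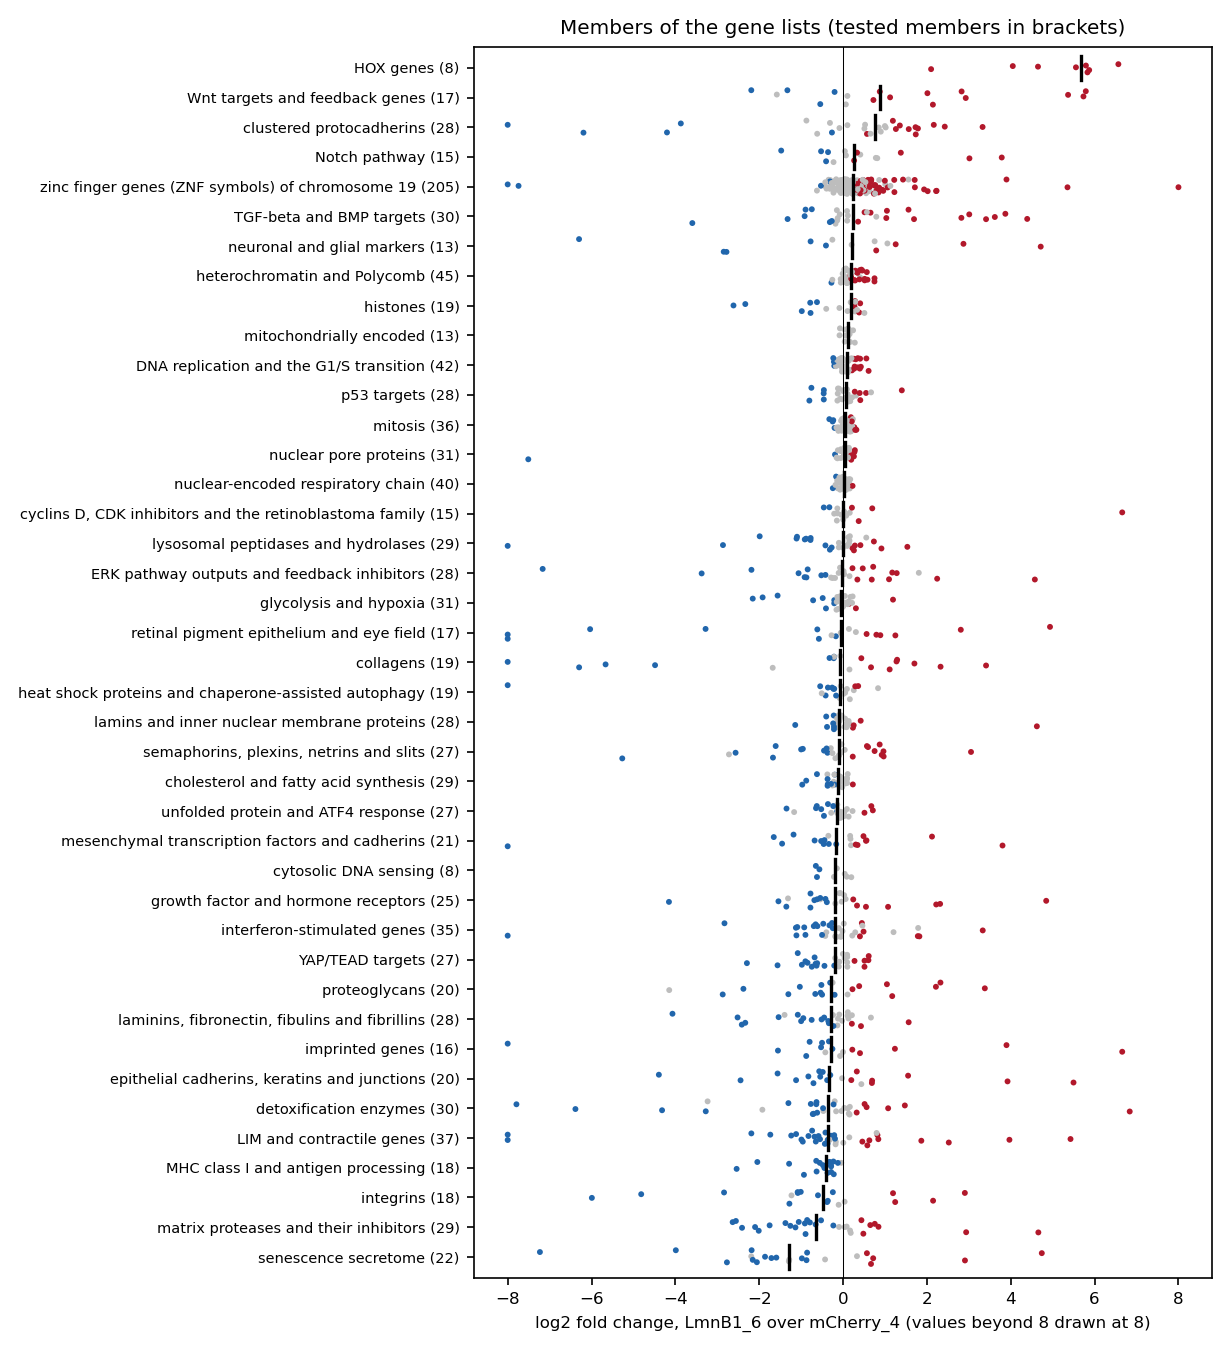
Log2 fold change of LmnB1_6 over mCherry_4 (x axis) for the tested members of each gene list (rows), with red and blue points for members called higher and lower, grey points for members not called and a black bar at the median. HOX genes had the highest median (5.67) and the senescence secretome the lowest (-1.29), and most lists had members called in both directions.

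Chromatin regulators that were called rose, with 1 exception and by less than 2-fold. Of 45 heterochromatin and Polycomb genes listed and tested, 20 rose, 1 fell and none passed 2-fold (44.4% higher and 2.22% lower, median log2 fold change 0.18, and 0.16 in LmnB1_16 over mCherry_3). The medians were close, but the difference between these pairs of clones was called for 23 of the 45 genes. SMCHD1, which keeps the silent X chromosome condensed, stood at 128, 116 and 109.8 CPM in mCherry_4 and 186, 163 and 157 CPM in LmnB1_6 (log2 fold change 0.52, SE 0.08, edgeR adjusted p = 9.08e-05). UHRF1, which guides maintenance DNA methylation, rose from 209 to 284 CPM (log2 fold change 0.44, SE 0.06, edgeR adjusted p = 1.23e-05). JARID2, a Polycomb partner, rose from 41.8 to 62.7 CPM (log2 fold change 0.58, SE 0.08, edgeR adjusted p = 2.93e-05). KDM4B, a histone demethylase, rose from 49.1 to 70.1 CPM (log2 fold change 0.51, SE 0.06, edgeR adjusted p = 2.80e-06). The exception was MBD2, a reader of methylated DNA, chosen after its values were seen, which fell from 75.5 to 62.3 CPM (log2 fold change -0.28, SE 0.06, edgeR adjusted p = 7.55e-04). In LmnB1_16 over mCherry_3 the log2 fold change was 0.38 for SMCHD1 and 0.68 for UHRF1, but -0.41 for JARID2 and -0.65 for KDM4B. For MBD2 it was 0.16 there.

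Among 30 histone genes listed, 19 were tested, 5 rose and 6 fell (26.3% higher and 31.6% lower, median log2 fold change 0.18). H4C8, a histone H4 gene, fell from 0.938 to 0.146 CPM (log2 fold change -2.61, SE 0.48, edgeR adjusted p = 3.49e-04). H2BC4, a histone H2B gene, fell from 2.56 to 0.507 CPM (log2 fold change -2.33, SE 0.33, edgeR adjusted p = 3.17e-05). Its relative H2BC12 fell from 11.4 to 6.63 CPM (log2 fold change -0.78, SE 0.13, edgeR adjusted p = 1.60e-04). H1-2, a linker histone, fell from 6.56 to 3.83 CPM (log2 fold change -0.78, SE 0.14, edgeR adjusted p = 3.22e-04). Most replication-dependent histone messages lack a poly(A) tail and their copies share sequence, so these counts are uncertain.

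Chromosome 19 had the largest share of genes called higher of any chromosome. Of 1058 tested there, 278 (26.3%) rose and 91 (8.60%) fell, against 17.1% and 20.1% over all tested genes. The median log2 fold change of its genes was 0.14, and 0.0095 in LmnB1_16 over mCherry_3. Chromosomes 22, 20 and 16 had the next highest medians here, 0.065, 0.054 and 0.044. The zinc finger genes with ZNF symbols, most of them KRAB repressors of transposons, made up 205 of these, of which 52 rose and 4 fell (25.4% higher and 1.95% lower, median log2 fold change 0.25, and 0.30 in LmnB1_16 over mCherry_3). Clones of the same construct differed too, as the median of these zinc finger genes was 0.26 in mCherry_4 over mCherry_3 and 0.19 in LmnB1_6 over LmnB1_16. Without them, 226 of 853 genes rose, 87 fell, and the median log2 fold change was 0.11, and -0.0585 in LmnB1_16 over mCherry_3. The list of zinc finger genes and the choice of chromosome followed earlier results of these data. ZNF486 had 1 count in mCherry_4 and 385 in LmnB1_6, a ratio of 365-fold with a 95% counting interval of 65.1 to 14453. ZNF792 rose from 2.34 to 11.04 CPM (log2 fold change 2.23, SE 0.17, edgeR adjusted p = 1.48e-08). ZNF681 had 164 counts in mCherry_4 and 0 in LmnB1_6, and was at least 57.7-fold lower. Zinc finger genes share repeats of sequence, so single members are uncertain. Among the other chromosomes, chromosome 4 had the largest share lower, 28.3%.

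**Figure D4:**
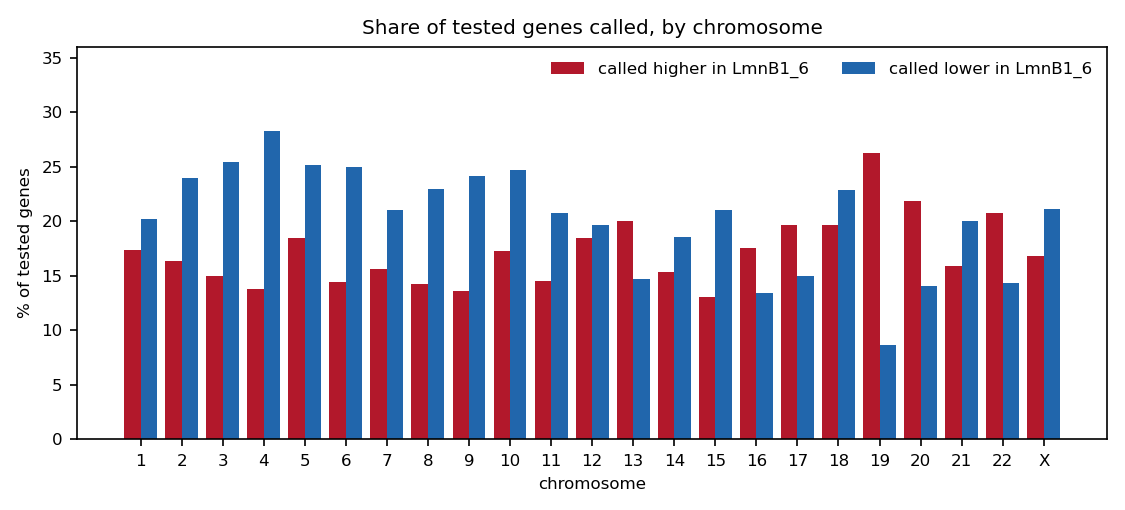
Share of the tested genes of each chromosome (x axis) that were called higher (red) and lower (blue) in LmnB1_6, in percent (y axis, from 0). Chromosome 19 has the largest share higher, 26.3%, and the smallest share lower, 8.60%, and chromosome 4 has the largest share lower, 28.3%.

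Of 53 clustered protocadherins listed, cell surface cadherins that share exons and sequence within each cluster and are therefore uncertain, 28 were tested, 11 rose and 5 fell (39.3% higher and 17.9% lower, median log2 fold change 0.75). PCDHGA11, of the gamma cluster, stood at 51.4, 50.3 and 45.1 CPM in mCherry_4 and 0.428, 0.638 and 0.873 CPM in LmnB1_6 (log2 fold change -6.19, SE 0.14, edgeR adjusted p = 6.09e-15). PCDHA6, of the alpha cluster, stood at 18.01, 21.4 and 18.2 CPM in mCherry_4 and 1.28, 1.03 and 0.839 CPM in LmnB1_6 (log2 fold change -4.20, SE 0.18, edgeR adjusted p = 1.34e-11). PCDHGB2, of the gamma cluster, rose from 6.84 to 17.5 CPM (log2 fold change 1.35, SE 0.15, edgeR adjusted p = 1.82e-06).

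Imprinted genes, expressed from the copy of a single parent, numbered 16 tested, with 5 higher and 8 lower (31.2% higher and 50% lower, median log2 fold change -0.30). PPP1R9A, which encodes the actin-binding protein neurabin, had 1347 against 1 counts, a ratio of 1421-fold with a 95% counting interval of 255 to 56162. MEG3, a long non-coding RNA, rose from 113 to 267 CPM (log2 fold change 1.24, SE 0.13, edgeR adjusted p = 1.04e-06). ZNF331, a zinc finger gene of chromosome 19, rose from 0.515 to 7.77 CPM (log2 fold change 3.90, SE 0.24, edgeR adjusted p = 1.71e-09). PEG10, a gene derived from a retrotransposon, fell from 142 to 77.3 CPM (log2 fold change -0.88, SE 0.09, edgeR adjusted p = 1.04e-06). The log2 fold changes in LmnB1_16 over mCherry_3 were 7.87 for ZNF331, but 0.19 for PPP1R9A, -0.17 for MEG3 and 0.81 for PEG10.

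No gene of replication or division that was called differed by 2-fold or more. Of 42 replication and G1/S genes tested, 12 rose and 3 fell (28.6% higher and 7.14% lower, median log2 fold change 0.09). Their median was 0.61 in LmnB1_16 over mCherry_3, 0.40 in mCherry_4 over mCherry_3 and -0.08 in LmnB1_6 over LmnB1_16. The difference between the pairs of clones that share no library was called for 35 of the 42 genes. UNG, which removes uracil from DNA, rose from 44.2 to 67.6 CPM (log2 fold change 0.61, SE 0.08, edgeR adjusted p = 2.30e-05). CCNE1, cyclin E1, rose from 8.65 to 12.7 CPM (log2 fold change 0.56, SE 0.10, edgeR adjusted p = 4.91e-04). RFC3, a clamp loader subunit, rose from 47.6 to 63.1 CPM (log2 fold change 0.41, SE 0.07, edgeR adjusted p = 1.43e-04). RFC5, of the same complex, rose from 39.5 to 53.1 CPM (log2 fold change 0.42, SE 0.08, edgeR adjusted p = 3.55e-04).

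Among 36 mitotic genes, 5 rose and 4 fell (13.9% higher and 11.1% lower, median log2 fold change 0.05). CCNB1, cyclin B1, stood at 104, 110.4 and 101 CPM in mCherry_4 and 137, 137 and 119 CPM in LmnB1_6 (log2 fold change 0.32, SE 0.09, edgeR adjusted p = 0.00891). ANLN, anillin of the cleavage furrow, stood at 603, 606 and 529.6 CPM in mCherry_4 and 483, 474 and 428 CPM in LmnB1_6 (log2 fold change -0.33, SE 0.07, edgeR adjusted p = 0.00124). The median log2 fold change of the mitotic list was 1.09 in LmnB1_16 over mCherry_3 and 1.01 in mCherry_4 over mCherry_3. It was -0.05 in LmnB1_6 over LmnB1_16, so that mCherry_3 was the clone apart by these medians.

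Of 15 cyclins D, CDK inhibitors and retinoblastoma genes tested, 4 rose (26.7%) and 2 fell (13.3%). CDKN1C, a CDK inhibitor, went from 1 to 149 counts, a ratio of 141-fold with a 95% counting interval of 24.97 to 5616. CDK6, the kinase that D cyclins activate, rose from 95.6 to 155 CPM (log2 fold change 0.70, SE 0.11, edgeR adjusted p = 8.75e-05). RBL2, a retinoblastoma relative, rose from 43.7 to 56.6 CPM (log2 fold change 0.37, SE 0.06, edgeR adjusted p = 1.25e-04). CDKN1B, another CDK inhibitor, fell from 74.5 to 59.4 CPM (log2 fold change -0.33, SE 0.07, edgeR adjusted p = 0.00173).

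Targets of p53 rose for 5 and fell for 5 of 28 tested (17.9% higher and 17.9% lower, median log2 fold change 0.07). BBC3, the cell death gene PUMA, rose from 4.28 to 11.3 CPM (log2 fold change 1.40, SE 0.21, edgeR adjusted p = 5.42e-05). GADD45A, a stress gene, fell from 78.2 to 44.8 CPM (log2 fold change -0.80, SE 0.10, edgeR adjusted p = 1.16e-05).

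SLC2A1 and HK2, which bring glucose in and trap it, fell. Of 31 glycolysis and hypoxia genes tested, 3 rose and 8 fell (9.68% higher and 25.8% lower, median log2 fold change -0.05). SLC2A1, the glucose transporter GLUT1, stood at 609, 588 and 562 CPM in mCherry_4 and 202, 199 and 195 CPM in LmnB1_6 (log2 fold change -1.56, SE 0.07, edgeR adjusted p = 1.81e-11). HK2, a hexokinase, stood at 93.7, 87.6 and 84.6 CPM in mCherry_4 and 19.8, 24.97 and 25.4 CPM in LmnB1_6 (log2 fold change -1.92, SE 0.09, edgeR adjusted p = 4.54e-11). In the other clones SLC2A1 averaged 513 CPM in mCherry_3 and 513 CPM in LmnB1_16, and HK2 averaged 78.1 CPM in mCherry_3 and 76.2 CPM in LmnB1_16. BNIP3L, a receptor for removal of mitochondria, fell from 205 to 125 CPM (log2 fold change -0.71, SE 0.07, edgeR adjusted p = 2.47e-07).

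Among 40 nuclear-encoded respiratory chain genes tested, 1 rose and 2 fell (2.5% higher and 5% lower, median log2 fold change 0.02). These were UQCRC1 of complex III (log2 fold change 0.23), NDUFB5 of complex I (-0.24) and SDHA of complex II (-0.17). Each call was lost in at least 1 alternative. Over all of them the adjusted p (edgeR, DESeq2 or limma) was 1.60e-04 to 0.0756 for UQCRC1, 0.0143 to 0.173 for NDUFB5 and 0.0322 to 0.185 for SDHA. None of 13 mitochondrially encoded genes was called by edgeR in the fit used throughout. At an unadjusted p under 0.05 there was 1, DESeq2 and limma called 0, and edgeR called 3 with no filter on low counts, 2 with the replicate number as a block and 2 without LmnB1_6 replicate 3. MT-CO1, a subunit of complex IV, went from 6651 to 7201 CPM, and MT-ND4, a subunit of complex I, from 2789 to 2866 CPM.

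Of 27 genes of the unfolded protein and ATF4 responses, 3 rose and 8 fell (11.1% higher and 29.6% lower, median log2 fold change -0.14). HSPA5, the chaperone BiP, fell from 1026 to 748 CPM (log2 fold change -0.46, SE 0.06, edgeR adjusted p = 8.99e-06). XBP1, a factor that the response activates by splicing, fell from 80.9 to 52.3 CPM (log2 fold change -0.63, SE 0.11, edgeR adjusted p = 2.17e-04). SLC7A11, the cystine transporter, rose from 40.7 to 58.1 CPM (log2 fold change 0.51, SE 0.08, edgeR adjusted p = 1.13e-04).

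Among 19 heat shock and chaperone-assisted autophagy genes tested, 2 rose and 8 fell (10.5% higher and 42.1% lower, median log2 fold change -0.08). HSPB8, a small heat shock protein that works with BAG3, went from 1150 counts to 1, a ratio of 1213-fold with a 95% counting interval of 217 to 47954, and averaged 43.9 CPM in mCherry_3 and 0 CPM in LmnB1_16. BAG3 itself fell from 214 to 167 CPM (log2 fold change -0.36, SE 0.06, edgeR adjusted p = 1.27e-04). SQSTM1, an autophagy receptor, fell from 365 to 250.4 CPM (log2 fold change -0.55, SE 0.05, edgeR adjusted p = 6.14e-07).

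Among 29 cholesterol and fatty acid genes tested, 1 rose and 9 fell (3.45% higher and 31% lower, median log2 fold change -0.11). ELOVL6, a fatty acid elongase, fell from 119.95 to 65.3 CPM (log2 fold change -0.88, SE 0.07, edgeR adjusted p = 6.10e-08).

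Lysosomal genes were divided, 7 higher and 12 lower of 29 tested (24.1% higher and 41.4% lower, median log2 fold change -0.00030). GALC, which breaks down galactosylceramide, had 14.1, 12.2 and 13.8 CPM in mCherry_4 and 0 CPM in every LmnB1_6 library and was at least 328-fold lower. GALC had 0 counts in the mCherry_3 and LmnB1_16 libraries as well, so mCherry_4 was the clone apart. DPP7, a lysosomal peptidase, stood at 65.3, 56.6 and 57.96 CPM in mCherry_4 and 9.201, 7.95 and 7.58 CPM in LmnB1_6 (log2 fold change -2.86, SE 0.09, edgeR adjusted p = 1.49e-13). It averaged 66.9 CPM in mCherry_3 and 8.18 CPM in LmnB1_16, so both lamin B1 clones were low. CTSK, cathepsin K, fell from 55.7 to 14.02 CPM (log2 fold change -1.99, SE 0.11, edgeR adjusted p = 2.29e-10).

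Among 30 detoxification enzymes tested, 6 rose and 13 fell (20% higher and 43.3% lower, median log2 fold change -0.35). CYP1B1, an oestrogen hydroxylase, stood at 11.96, 16.8 and 9.998 CPM in mCherry_4 and 0.128, 0.245 and 0.101 CPM in LmnB1_6 (log2 fold change -6.38, SE 0.33, edgeR adjusted p = 1.46e-10). MAOA, which oxidises serotonin and noradrenaline, stood at 12.7, 11.02 and 15.7 CPM in mCherry_4 and 0, 0.0491 and 0.101 CPM in LmnB1_6 (log2 fold change -7.79, SE 0.37, edgeR adjusted p = 5.92e-11, and -7.20 with effective lengths in the fit). AOX1, aldehyde oxidase, went from 133 to 53.8 CPM (log2 fold change -1.30, SE 0.07, edgeR adjusted p = 1.24e-10). MAOA averaged 20.5 CPM in mCherry_3 and 0.1102 CPM in LmnB1_16, low in both lamin B1 clones, whereas CYP1B1 averaged 28.7 CPM in mCherry_3 and 31.0 CPM in LmnB1_16.

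Markers of the remaining lineages gave few tested genes: of 4 endothelial genes 1 rose and 1 fell, of 3 muscle genes 1 fell, and no cancer-testis antigen passed the filter. TNNT1, slow skeletal troponin T, fell from 55.3 to 29.5 CPM (log2 fold change -0.90, SE 0.10, edgeR adjusted p = 1.79e-06). The endothelial calls were TIE1, from 3.90 to 5.17 CPM, and KDR, from 0.0862 to 0 CPM. Both were lost in some alternatives, with an adjusted p (edgeR, DESeq2 or limma) of 0.02 to 0.406 for TIE1 and 0.0204 to 0.726 for KDR over all of them.

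Among protein-coding genes, 84 averaged under 0.1 CPM in LmnB1_6 and at least 1 CPM in mCherry_4, and 48 the reverse. Of the 84, 41 had 0 counts in all 3 LmnB1_6 libraries, 47 averaged at least 1 CPM in both clones outside this comparison, 11 averaged under 0.1 CPM in LmnB1_16 and 12 under 0.1 CPM in mCherry_3. Of the 48, 5 had 0 counts in mCherry_4, 13 averaged under 0.1 CPM in both other clones, and 5 reached 1 CPM in LmnB1_16.

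Further genes fell to 0 or near 0 counts. DAPK1, a kinase that promotes cell death, had 3555 counts in mCherry_4 and 2 in LmnB1_6, a ratio of 1875-fold with a 95% counting interval of 519 to 15488. ADAMTSL3, an ADAMTS-like matrix protein, and CYRIA, a regulator of actin branching, had 0 counts in LmnB1_6 and were at least 311-fold and at least 272-fold lower. DMBT1, ANOS1, SLC1A1, a glutamate transporter, THRB, the thyroid hormone receptor beta, NRK and ZNF512 also had 0 counts there, from means of 5.45 to 8.02 CPM in mCherry_4. RELN, which encodes the matrix glycoprotein reelin and was chosen after its values were seen, stood at 114, 112 and 104 CPM in mCherry_4 and 0.0856, 0.196 and 0.134 CPM in LmnB1_6 (log2 fold change -9.61, SE 0.15, edgeR adjusted p = 1.47e-16).

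The largest rises included 4 genes of the HOXB cluster given above. NXN, nucleoredoxin, stood at 2.08, 2.59 and 1.101 CPM in mCherry_4 and 149, 166 and 172 CPM in LmnB1_6 (log2 fold change 6.40, SE 0.15, edgeR adjusted p = 1.37e-14). DCLK1, a microtubule-binding kinase, stood at 0.948, 1.38 and 1.91 CPM in mCherry_4 and 83.5, 78.99 and 80.01 CPM in LmnB1_6 (log2 fold change 5.83, SE 0.15, edgeR adjusted p = 2.44e-14). TNFSF4, the OX40 ligand, stood at 0.587, 0.7095 and 0.678 CPM in mCherry_4 and 59.6, 57.1 and 53.8 CPM in LmnB1_6 (log2 fold change 6.42, SE 0.18, edgeR adjusted p = 5.23e-14). In each of these 3 genes the LmnB1_6 libraries were far above those of mCherry_4. PDZRN3, a ubiquitin ligase, rose from 0.484 to 60.01 CPM (log2 fold change 6.93, SE 0.18, edgeR adjusted p = 4.02e-14, and 6.28 with effective lengths in the fit). KCNG1, a potassium channel subunit, rose from 0.128 to 18.6 CPM (log2 fold change 7.12, SE 0.37, edgeR adjusted p = 1.11e-09). APBA2, an adaptor of neurons, rose from 0.282 to 20.1 CPM (log2 fold change 6.11, SE 0.29, edgeR adjusted p = 3.89e-10). ZNF516, a zinc finger factor, rose from 0.426 to 25.01 CPM (log2 fold change 5.85, SE 0.25, edgeR adjusted p = 1.40e-11). Some rises started from almost no counts. SPSB4 had 1 count in mCherry_4 and 428 in LmnB1_6, a ratio of 406-fold with a 95% counting interval of 72.4 to 16063. HRNR, a protein of the skin barrier, rose from 0.0741 to 7.36 CPM (log2 fold change 6.58, SE 0.55, edgeR adjusted p = 6.11e-08). PCSK1N, an inhibitor of a prohormone convertase, rose from 0.0592 to 6.01 CPM (log2 fold change 6.60, SE 0.40, edgeR adjusted p = 1.11e-09).

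In CPM, LMNB1, VCAN, KRT81 and TGFBI rose most, followed by AKAP12, a kinase scaffold, from 459 to 1507 CPM (log2 fold change 1.72, SE 0.12, edgeR adjusted p = 8.79e-09). DCBLD2, a membrane receptor, rose from 934 to 1546 CPM (log2 fold change 0.73, SE 0.08, edgeR adjusted p = 1.31e-06). SERINC2, a multipass membrane protein, rose from 165 to 531 CPM (log2 fold change 1.68, SE 0.07, edgeR adjusted p = 7.23e-12). EEF1A1, a translation factor with many pseudogenes, rose from 8764 to 9516 CPM (log2 fold change 0.12, SE 0.04, edgeR adjusted p = 0.0381). Its call was lost in several alternatives, with an adjusted p (edgeR, DESeq2 or limma) of 0.00916 to 0.204 over all of them.

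The other 6 libraries place this difference among the 4 clones. Over all tested genes, the LmnB1_6 libraries lay outside the range of the other 9 libraries for 23.2%, the mCherry_4 libraries for 5.37%, and the 6 lamin B1 libraries lay apart from the 6 control libraries for 8.66%. Among the 5727 called genes these were 3225, 696 and 1124. Among the 1645 called at 2-fold or more they were 1199, 287 and 318. For FLNA, MYH9, SAMD9, CSPG4, ITGA4, ETV4, UNG, CSF1R, TIE1, PCDHA6 and PCSK1N, as for NUP210, GALC, HOXB4, ACTB and ACTG1, the mCherry_4 libraries lay outside the range of the other 9 and the LmnB1_6 libraries did not. Such genes could still go either way in LmnB1_16 over mCherry_3. PCDHA6 had a log2 fold change of -4.20 here and -4.96 there, whereas CSF1R had -1.81 here and 1.58 there. LMNB1, ZNF185, BGN, DPP7 and MAOA were among those that set both lamin B1 clones apart from both controls.

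LmnB1_16 against mCherry_3 is the contrast of constructs that shares no library with this pair. It called 6838 genes (44.4% of those tested). Among these, 1872 were called in the same direction as in LmnB1_6 over mCherry_4, which is 32.7% of the calls in this pair and 27.4% of those in the other. A further 1342 were called in the opposite direction (23.4% and 19.6%), and 2513 of the 5727 were not called in the other pair. At 2-fold or more in this pair, 443 genes were called alike and 444 in opposite directions in the other pair. The number called alike was 1236 with effective lengths in the fit and 1183 with limma on log2 TPM. The difference between the contrasts was itself called for 6014 genes (39.1%).

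Some genes went opposite ways in these pairs. THBS1 had a log2 fold change of -2.33 here and 1.46 in LmnB1_16 over mCherry_3 (edgeR adjusted p of the difference 7.37e-10). PLAT had -2.56 here and 1.15 there on the same scale (edgeR adjusted p of the difference 3.65e-14). VEGFA had -2.15 here and 1.57 there (edgeR adjusted p of the difference 5.33e-11). VEGFC also fell here and rose there, at -1.59 and 1.59 (edgeR adjusted p of the difference 4.50e-12). Other genes went the same way. BGN had a log2 fold change of 3.38 here and 5.87 there. ZNF185 had 5.43 here and 5.53 there, and POGLUT3 had 3.78 and 6.34. DPP7 fell in both, with -2.86 here and -3.03 there.

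**Figure D5:**
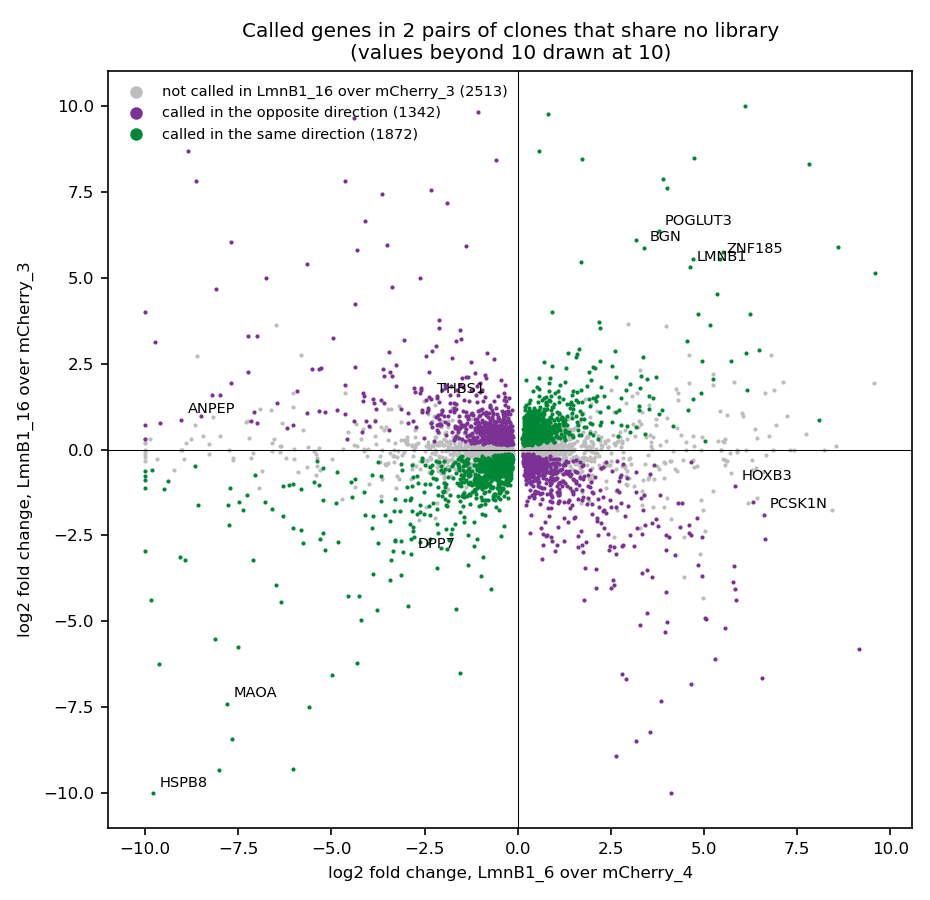
Log2 fold change of LmnB1_6 over mCherry_4 (x axis) and of LmnB1_16 over mCherry_3 (y axis) for the 5727 genes called in the first pair, with values beyond 10 drawn at 10. Green genes were called in the same direction in both pairs (1872), purple genes in opposite directions (1342) and grey genes were not called in the second pair (2513).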

How the data were processed

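RNA of 4 clones of hTERT RPE-1 was sequenced after mRNA library preparation, per the labels' protocols, with 3 libraries per clone. Each library had a deposited table of estimated counts per gene, TPM (abundance scaled by length and depth) and effective lengths in bases, per the file headers. STAR, Salmon and DESeq2 and the build GRCh38 (hg38) are named in the submitters' processing notes. No source used here gives their versions or roles, the annotation release, the strand of the libraries or the read length. Read length and depth set how well near-identical genes are told apart, and the estimated counts share such reads between genes by a model.

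Of 60708 gene IDs, 58440 matched GENCODE 29 (GRCh38), which gave positions, and 60696 had a symbol there or in the table of gene names. Estimated counts were rounded to whole numbers, since 31.3% to 32.6% of the detected genes of a library were not whole. Genes were kept by edgeR's filterByExpr grouped by clone (minimum count 10, minimum total 15), which left 15388. Libraries were scaled with TMM. The main test was edgeR's quasi-likelihood test (edgeR 4.0.16, R 4.3.3) with the 4 clones as groups and all 12 libraries in the fit, so that they shared an estimate of the spread. P-values were adjusted by Benjamini and Hochberg over all genes tested, and genes under 0.05 were called. The SE of a log2 fold change was its size divided by the square root of the F statistic. For genes with 0 counts in a clone, 3 counts over its 3 libraries served as the floor of the fold. Ratios against 1 to 3 counts carry a 95% interval that covers counting error only. On counts simulated for this comparison over 15388 genes, 77.6% of 67 genes changed 1.5-fold, 92.5% of 67 changed 2-fold and 98.5% of 66 changed 4-fold were recovered, with 13 false calls. Changed genes were drawn from those with a mean of at least 1 CPM, and counts followed the spread fitted here. Far fewer genes were changed than were called in the data, so these rates need not hold for the data or for scarcer genes.

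The members, the gene lists and the tests were chosen with earlier results of these data known, so the lists are described by counts and medians and were not tested as sets. Genes were named by a rule: LMNB1, the top 15 rises and top 15 falls in log2 fold change among called protein-coding genes whose libraries did not overlap and whose higher clone averaged at least 5 CPM, the top 10 rises and top 10 falls in mean CPM, the 5 most abundant in a clone among those under 0.1 CPM in the other, and up to 4 called members of each list by adjusted p. Where no member of a list was called, the 2 most abundant were named. Not all of these are printed. Other genes carry a remark that they were chosen after seeing values. The markers KRT8, KRT18 and VIM come from a list of cell type markers.

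The alternatives were DESeq2's test (version 1.42.0), its size factors in edgeR, no filter on low counts, a filter of 1 CPM in 3 libraries, a fit of the 6 libraries alone, the replicate number as a block, the deposited effective lengths as offsets, limma (version 3.58.1) on log2 of the deposited TPM with a pseudocount of 0.5, and each library left out in turn.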

Additional observations from a re-analysis of the deposited data

Results flagged for a closer look

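The difference LmnB1_6 minus mCherry_4 was set against the difference LmnB1_16 minus mCherry_3 by a test of one minus the other, with edgeR over all 12 libraries. The test was called for 6014 genes (39.1% of those tested). The named genes with the largest changes in LmnB1_6 are given below with the adjusted p of that test (edgeR), because their change differed between these contrasts. Groups of 3 libraries were not tested for outlying libraries.

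Among genes that rose in LmnB1_6, LMNB1 itself had a log2 fold change of 4.62 there and 5.31 in LmnB1_16 over mCherry_3, and an adjusted p of the difference of 2.95e-05 (edgeR). LMNB1 stood at 3330, 3666 and 3126 CPM in LmnB1_16, below its LmnB1_6 libraries at 3985, 4134 and 3808 CPM. The controls differed too, with 77.2, 91.15 and 86.6 CPM in mCherry_3, below the 160, 169 and 155 CPM of mCherry_4. The HOXB genes on the list were HOXB3 (3.65e-14), HOXB4 (3.35e-08), HOXB6 (8.03e-14) and HOXB8 (9.57e-08). HOXB3 averaged 5.83 CPM in mCherry_3 and 2.78 CPM in LmnB1_16. HOXB4 averaged 5.58 CPM in mCherry_3 and 5.28 CPM in LmnB1_16. HOXB6 averaged 5.54 CPM in mCherry_3 and 0.542 CPM in LmnB1_16. HOXB8 averaged 0.502 CPM in mCherry_3 and 0 CPM in LmnB1_16. The others that rose were APBA2 (0.015), DCLK1 (2.28e-13), HRNR (0.00296), NXN (1.44e-09), PCSK1N (1.39e-10), PDZRN3 (0.00798), TNFSF4 (2.91e-09), ZNF486 (8.63e-08) and ZNF516 (5.50e-12).

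Among genes that fell to 0 or near 0 counts in LmnB1_6, these were called, with the adjusted p of the difference in brackets: ADAMTSL3 (8.37e-12), ANOS1 (1.71e-10), CDH10 (2.62e-08), COL4A5 (5.33e-12), CYRIA (4.65e-10), DAPK1 (6.66e-13), DMBT1 (2.60e-07), DMD (1.45e-11), NRK (7.99e-10), OTX2 (3.26e-11), PGM5 (1.08e-12), SLC1A1 (2.94e-09), THRB (4.99e-09) and ZNF512 (4.00e-04). OTX2 and COL4A5, the eye factor and the collagen chain described above, had log2 fold changes of 0.30 and -0.61 in LmnB1_16 over mCherry_3. DMD had 0.20 there and PGM5 -0.77.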

How the results depend on the processing

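No named gene changed direction under an alternative where it was called in the main fit or in that alternative. Changes of sign in the list medians were not recorded. The 5727 calls became 5827 with DESeq2, 5741 with DESeq2's size factors, 5800 with 6 libraries alone, 4409 with effective lengths and 4182 with limma on log2 TPM. The last 2 kept 73.9% and 69.25% of them in the same direction. Leaving out 1 of the 6 libraries in turn gave 4827 to 5379 calls. Genes called alike in LmnB1_16 over mCherry_3 fell from 1872 to 1236 with effective lengths and 1183 with limma on log2 TPM. The cause was not tested. Of the values for single named genes under alternatives, 2736 stayed on the same side of the threshold and 34 lost the call. Over all lists and alternatives, 29 of 616 counts of called members moved by over 1.5 times, and 94 of 616 medians moved by more than the SD between the LmnB1_6 libraries. Setting genes with 0 counts at their bound changed the endothelial median log2 fold change from -0.91 to -0.79 and no other list's. Genes at a few counts have wide intervals at this depth.

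The replicate numbers of the labels were checked for pairing. Same-numbered libraries of LmnB1_6 and mCherry_4 had deviations from their clone means that correlated at -0.029, -0.004 and 0.119 across genes, and not every library correlated best with its own number. These correlations gave no clear pairing by number. The third principal component of the 6 libraries, however, ordered both clones by number. Replicates 1, 2 and 3 scored 16.85, 3.85 and -20.33 in mCherry_4 and 19.68, 6.59 and -26.64 in LmnB1_6. Whether the numbers pair the libraries was therefore not settled. With the replicate number as a block, 5808 genes were called, 2691 higher and 3117 lower, 5595 of them shared with the calls above. In the same fit 1943 genes were called alike in both pairs, the difference between the contrasts was called for 6102, and LMNB1 had a log2 fold change of 4.62.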

Other observations

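Neighbouring tested genes called in the same direction formed runs besides the HOXB cluster. They were chosen after their values were seen and were not tested as runs. A run of 11 genes higher in LmnB1_6 reached from KRT10 to JUP (chromosome 17, 40818117 to 41786931, GRCh38) and held type I keratin and keratin-associated genes of hair. KRTAP2-3 rose from 2.55 to 19.3 CPM (log2 fold change 2.91, SE 0.25, edgeR adjusted p = 1.09e-07). KRT33B, a hair keratin, rose from 0.338 to 4.71 CPM (log2 fold change 3.76, SE 0.55, edgeR adjusted p = 3.74e-05). KRT34, another hair keratin, rose from 2.85 to 7.71 CPM (log2 fold change 1.43, SE 0.21, edgeR adjusted p = 5.22e-05). KRTAP2-3 averaged 1.43 CPM in mCherry_3 and 0.847 CPM in LmnB1_16. Keratin-associated genes share sequence with each other, so their counts are uncertain.

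A run of 8 genes lower in LmnB1_6 reached from FRMPD3 to COL4A5 (chromosome X, 107522450 to 108697545, GRCh38) and took in the COL4A5 and COL4A6 pair. PRPS1, an enzyme of nucleotide synthesis, fell from 139.6 to 63.3 CPM (log2 fold change -1.14, SE 0.06, edgeR adjusted p = 1.13e-10). TSC22D3, a gene induced by glucocorticoids, fell from 15.6 to 6.10 CPM (log2 fold change -1.34, SE 0.13, edgeR adjusted p = 4.56e-07). MID2, a ubiquitin ligase, fell from 11.6 to 6.72 CPM (log2 fold change -0.79, SE 0.13, edgeR adjusted p = 1.18e-04). None of these 3 was at 0 in LmnB1_6, where COL4A5 was.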
